A study of Mus musculus with 10 samples.

Results

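The 8 transcription factors best known for driving epithelial-mesenchymal transition (EMT) were measured in the kidney cortex of sham mice and of mice with aristolochic acid nephropathy (AAN): Snai1, Snai2, Snai3, Twist1, Twist2, Zeb1, Zeb2 and Prrx1. They were chosen by name, with earlier results of these data known, and they are 8 of the 21792 genes in the deposited tables. The mice were wild-type male C57BL/6 mice, aged 8 weeks at the start per the study's methods. The 4 sham mice received PBS and the 6 AAN mice received 1 intraperitoneal injection of aristolochic acid, a plant toxin taken up by proximal tubule cells, at 5 mg/kg. Cortex was taken at day 28, and each mouse gave 1 RNA-seq library with no mice pooled. All 10 mice carry the same genotype, so the toxin is the labelled difference between the groups. The question is which of these regulators were higher or lower in the injured cortex, and whether the genes around them moved too.

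EMT is a program in which epithelial cells loosen their junctions, lose apical-basal polarity and take up features of mesenchymal cells. SNAI (Snail) and ZEB proteins are zinc finger repressors that bind E-box sequences of the form CAGGTG in promoters of junction genes such as Cdh1 (E-cadherin), TWIST proteins are basic helix-loop-helix factors that pair with E proteins, and PRRX1 is a homeobox factor of mesenchyme. In injured kidney these genes are known from tubule cells, where the program is often called partial because the cells stay in the tubule, but fibroblasts, macrophages and endothelium also express some of them.

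The E-box that SNAI and ZEB proteins recognise was looked up in promoter sequences from RefSeq (GRCm38.p6, 250 bases before to 50 bases after each gene start). The letters searched were CAGGTG and its reverse complement CACCTG, so each site is found on both strands and is counted once. The 4 stretches printed here are the 250 bases before a RefSeq start of Snai1, the only one of the 5 factors in the table with a match, and of 3 epithelial junction genes, with every match in capitals. Snai1 lies at chr2:167537945-167538194 (plus strand), Crb3 (a polarity protein) at chr17:57061951-57062200 (plus strand), Epcam (an epithelial adhesion molecule) at chr17:87635729-87635978 (plus strand) and Cldn4 (a tight junction claudin) at chr5:134946935-134947184 (minus strand). The starts are those of RefSeq, which gives Crb3 2 starts close together, of which the first is shown. GENCODE begins Crb3 further upstream, at 57059105, so its window lies inside the gene as drawn there. Crb3 was chosen for its number of matches, and Epcam and Cldn4 for their level among epithelial genes with a match.
Snai1: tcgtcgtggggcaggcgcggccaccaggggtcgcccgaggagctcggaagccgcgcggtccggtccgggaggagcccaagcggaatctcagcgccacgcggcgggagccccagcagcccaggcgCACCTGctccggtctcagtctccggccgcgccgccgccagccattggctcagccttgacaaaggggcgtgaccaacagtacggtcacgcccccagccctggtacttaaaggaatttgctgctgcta
Crb3: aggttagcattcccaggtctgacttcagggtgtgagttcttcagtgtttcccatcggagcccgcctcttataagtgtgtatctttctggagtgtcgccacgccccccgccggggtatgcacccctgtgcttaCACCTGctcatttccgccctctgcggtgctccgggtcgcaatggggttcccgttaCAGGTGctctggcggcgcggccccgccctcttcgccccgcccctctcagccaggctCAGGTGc
Epcam: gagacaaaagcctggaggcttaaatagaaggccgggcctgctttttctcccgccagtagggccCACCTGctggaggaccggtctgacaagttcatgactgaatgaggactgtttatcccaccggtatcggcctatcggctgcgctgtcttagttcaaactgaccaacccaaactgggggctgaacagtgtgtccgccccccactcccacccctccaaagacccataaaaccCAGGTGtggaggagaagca
Cldn4: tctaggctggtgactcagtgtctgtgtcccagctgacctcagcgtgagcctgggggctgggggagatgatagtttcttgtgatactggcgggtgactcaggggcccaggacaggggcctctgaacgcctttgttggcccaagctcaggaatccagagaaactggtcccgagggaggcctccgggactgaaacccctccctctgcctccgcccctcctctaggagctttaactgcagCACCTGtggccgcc

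Counted from the start site, with negative positions before it, the single match of Snai1 starts at -126. Crb3 has matches at -118, -63 and -7 and Epcam at -187 and -19. Cldn4 has 1 at -14, and Crb3 and Cldn4 each have 1 more after the start, where no bases are printed. Of the 15 epithelial genes, 9 are in the promoter table and 7 of these hold a match (77.8%: Cldn3, Cldn4, Cldn7, Crb3, Dsp, Epcam and Ocln). Of the 12 mesenchymal genes, 7 are in the table and 1, Sparc, holds a match (14.3%). Of all 27025 genes with a promoter sequence, 6098 hold one (22.6%), so windows of this length often carry these letters. Snai2, Snai3, Zeb1 and Cdh1 had no entry in the table and were not analysed here. A match describes the letters of the window and does not show binding.

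The authors' values are FPKM, fragments scaled to gene length and to the number of mapped fragments, so levels of different genes are compared per length. The depth read back from the steps of low values was 15.85 to 17.51 M fragments for the sham libraries and 13.4 to 16.47 M for the AAN libraries. Genes above 0 numbered 16690 to 17639 per sham mouse and 19158 to 19636 per AAN mouse. The 20 most abundant genes held 50.6% to 74.6% of all FPKM of a sham library and 28.5% to 61.9% of an AAN library. This difference in make-up moved with the groups, and the 17129 genes tested had a median log2 fold change of 0.75, not 0. Rescaling by the median of ratios brought that median to 0.06 and quantile normalization brought it to -0.10. The labelled tissue fits its markers, since the 8 proximal tubule markers (Lrp2, Slc34a1 and others) summed to 2010 to 4180 FPKM per sham mouse and 589 to 2160 FPKM per AAN mouse. The mouse AAN B614 stood apart from the other AAN mice, with 2160 FPKM against 589 to 955 FPKM for this sum, and the values without it are given for the factors.

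All 8 factors had a higher FPKM in every AAN mouse than in every sham mouse. For Twist2 the closest mice, sham B607 and AAN B630, each had at most 1.65 fragments. For Twist1 the closest had 17 (sham B634) and 20 fragments (AAN B614). Prrx1 reached the filter of a mean of 0.1 FPKM over the 10 mice only through its AAN mice (mean 0.378 FPKM, sham 0.0132 FPKM). Some genes of the lists below did too. The 7 past that filter all passed the limits of adjusted p at most 0.05 (limma, Benjamini-Hochberg over all genes tested) and at least 2-fold. This has to be read against the background: 35.8% of all genes tested passed the same limits upwards and 3.43% downwards (6126 and 588 genes), and 40.3% did not overlap with higher levels in AAN (3.25% with lower). At the p limit alone it was 55.4% upwards. Rescaled by the median of ratios, the background was 19.0% upwards and 10.5% downwards (3261 and 1801 genes), and 6 of the 7 still passed. On that scale the groups overlapped for Snai3, Twist1 and Twist2, and 20.1% of all genes tested did not overlap with higher levels in AAN. The median log2 fold change of the 7 factors was 2.15, beside 0.75 over all genes tested, and single factors lay at percentiles 77.9 to 92.3 of all genes. Fold changes here are on the log2(FPKM + 0.1) scale, which understates the change of genes at such low levels. In whole cortex a larger number of cells expressing a factor and more RNA of it per cell cannot be told apart.

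**Figure D1:**
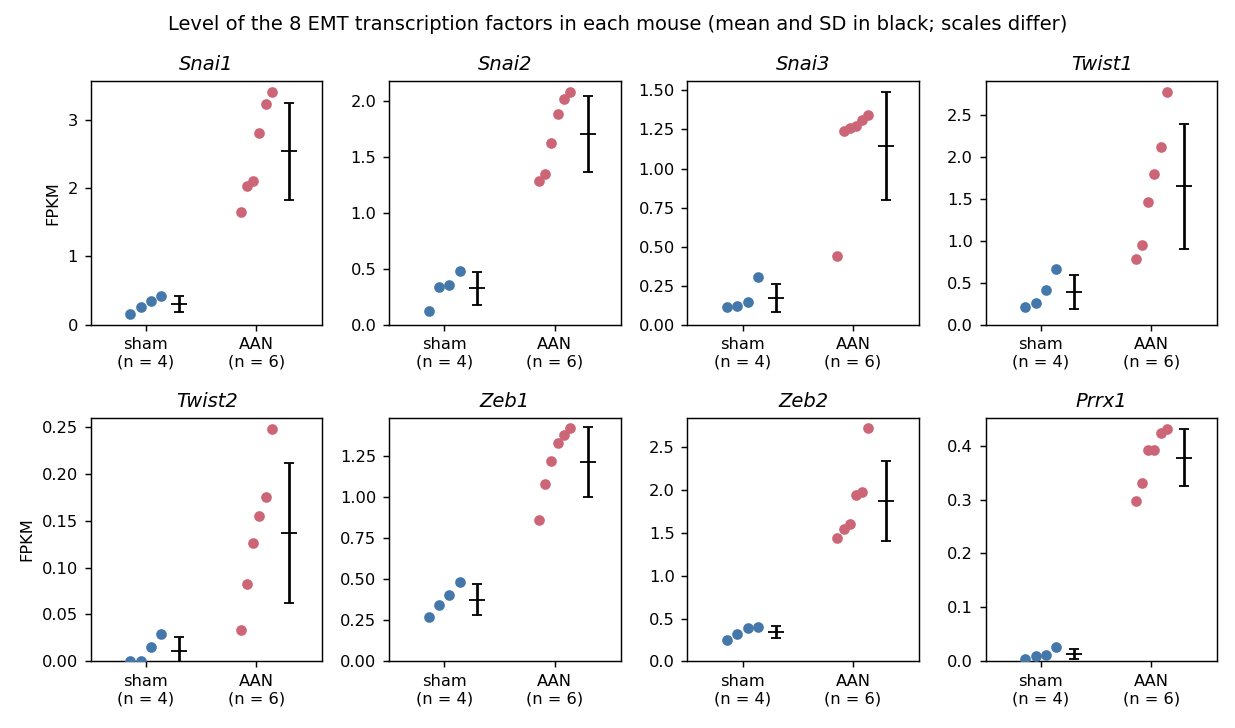
FPKM of each of the 8 factors (vertical axis, a separate scale in each panel) in the 4 sham mice (blue) and the 6 AAN mice (red), points sorted by level, with the mean and SD in black (cut at 0 for Twist2 in sham mice). No AAN point falls within the sham range in any panel, though the gap is small for Twist1 and Twist2. Snai1 ranges from 0.15 to 0.423 FPKM in sham mice and from 1.65 to 3.4 FPKM in AAN mice.

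Among the Snail family, Snai1 (ENSMUSG00000042821, chromosome 2, 167538195 to 167542814) is the member most directly induced by TGF-beta signals and represses Cdh1. Its level was 0.423, 0.35, 0.15 and 0.262 FPKM in sham B607, B634, B636 and H249, and 1.65 at lowest, 2.46 at the median and 3.4 FPKM at highest in AAN mice. The groups were far apart, with the lowest AAN mouse well above the highest sham mouse. The mean rose from 0.296 ± 0.118 (SD, n = 4) to 2.54 ± 0.712 FPKM (SD, n = 6), a ratio of 8.56 and a log2 fold change of 2.74 (SE 0.27, limma adjusted p = 4.73e-06). Its log2 fold change was 1.99 above the median of all genes, and it was the highest of the 7 factors tested on this scale, though with a pseudocount of 0.01 Prrx1 was higher (4.14 against 3.10).

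Snai1 is a gene of 1 annotated transcript, so its fragments can be read back as whole numbers. They were 12, 9, 4 and 7 in the sham mice and 42 to 90 in the AAN mice. Summed, 32 fragments in sham mice have an exact Poisson 95% interval of 21.9 to 45.2 and 381 in AAN mice one of 344 to 421, both covering counting error only. The sham level of Snai1 is thus measured from few fragments, while the gap between the groups is much wider than that error.

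Snai2 (Slug, ENSMUSG00000022676, chromosome 16, 14705852 to 14709385), a repressor of junction genes known from neural crest and wound edges, was 0.337, 0.124, 0.478 and 0.358 FPKM in the sham mice in the same order, and 1.28, 1.75 and 2.08 FPKM at the lowest, median and highest AAN mouse. The groups did not overlap, and the AAN mice lay within a narrow range. The mean rose from 0.325 ± 0.147 to 1.71 ± 0.343 FPKM, 5.25-fold, with a log2 fold change of 2.15 (SE 0.27, limma adjusted p = 3.59e-05). Its fragments numbered 4 to 16 per sham mouse and 41 to 69 per AAN mouse.

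Snai3 (Smuc, ENSMUSG00000006587, chromosome 8, 122454208 to 122460733), the least studied Snail gene, best known from lymphoid and muscle cells, was 0.144, 0.119, 0.115 and 0.305 FPKM in the sham mice. In AAN mice it was 0.441, 1.26 and 1.34 FPKM at the lowest, median and highest. The lowest AAN value, of B614, stood far from the other 5, which lay between 1.24 and 1.34 FPKM. The mean rose from 0.171 ± 0.0907 to 1.14 ± 0.346 FPKM, 6.69-fold (log2 2.18, SE 0.32, limma adjusted p = 0.000111), and without B614 the log2 fold change was 2.40. Its fragments were 3 to 8 per sham mouse and 11 to 34 per AAN mouse, so single sham values rest on very few fragments. The 7 T and NK cell markers tested all passed the limits upwards, beside 35.8% of all genes. Their list summed to 1.43 to 5.38 FPKM in sham mice and 99.2 to 261 FPKM in AAN mice. The part of such cells in the level of Snai3 was not tested.

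Of the TWIST factors, Twist1 (ENSMUSG00000035799, chromosome 12, 33957671 to 33959829) is known in tubule cells and in activated fibroblasts, and it lies 87750 bases from Hdac9, the gene after which the study is named. It was 0.212, 0.664, 0.263 and 0.413 FPKM in the sham mice and 0.788, 1.63 and 2.78 FPKM at the lowest, median and highest AAN mouse. Its fragments were 6 to 17 per sham mouse and 20 to 71 per AAN mouse. The gap between the highest sham mouse (B634, 17 fragments) and the lowest AAN mouse (B614, 20 fragments) was thus small. Twist1 had the widest spread of the factors within AAN, with an SD of 0.747 FPKM. The mean rose from 0.388 ± 0.203 to 1.65 ± 0.747 FPKM, 4.26-fold (log2 1.82, SE 0.36, limma adjusted p = 0.0011). With the median of ratios the log2 fold change was 1.16 (adjusted p = 0.0286) and the groups overlapped, as they then did for Snai3 and Twist2.

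Twist2 (Dermo1, ENSMUSG00000007805, chromosome 1, 91801461 to 91848028), a gene of dermal and osteogenic mesenchyme, was the factor at the lowest level. It was 0.0296, 0, 0.0158 and 0 FPKM in the sham mice and 0.0335, 0.14 and 0.247 FPKM at the lowest, median and highest AAN mouse. Its mean over all mice, 0.0864 FPKM, was under the filter, so it is not among the 7 tested. Over its whole exonic length these are at most 1.65, 0, 0.823 and 0 fragments in the sham mice and 1.65 to 12.4 in the AAN mice, so no fold is given. The log2 difference was 1.03 (SE 0.22), and permuting the mice over all 210 splits gave a two-sided exact p of 0.00952, where 0.00476 is the smallest it can give. The level in AAN B630, 0.0335 FPKM, was itself under the least that 3 fragments give in that library, 0.0766 FPKM. After quantile normalization the difference was 0.44 and the exact p was 0.152. The gene Gm29100, which overlaps Twist2, was listed at 0 in sham mice and at up to 0.11 FPKM in AAN mice.

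Of the ZEB factors, Zeb1 (ENSMUSG00000024238, chromosome 18, 5591860 to 5775467), a repressor of Cdh1 that is held down by the miR-200 family in epithelium, had the smallest log2 fold change of the 7 factors tested on the log2(FPKM + 0.1) scale, though not with a pseudocount of 1, where Prrx1 was smaller (0.44 against 0.68). It was 0.406, 0.268, 0.487 and 0.346 FPKM in the sham mice and 0.862, 1.27 and 1.42 FPKM at the lowest, median and highest AAN mouse. The groups did not overlap, and both were tight. The mean rose from 0.377 ± 0.0925 to 1.21 ± 0.213 FPKM, 3.23-fold, with a log2 fold change of 1.47 (SE 0.21, limma adjusted p = 9.11e-05). That is 0.72 above the median of all genes. After the median of ratios Zeb1 was at 0.82, under the 2-fold limit, with an adjusted p of 0.00551, and after quantile normalization it was at 0.22 with an adjusted p of 0.359.

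Zeb2 (Sip1, ENSMUSG00000026872, chromosome 2, 44983632 to 45117395), which also sets the identity of tissue macrophages and other myeloid cells, was 0.402, 0.39, 0.249 and 0.322 FPKM in the sham mice. It was 1.44, 1.77 and 2.72 FPKM at the lowest, median and highest AAN mouse. The groups did not overlap, and A483 was the highest. The mean rose from 0.341 ± 0.0705 to 1.87 ± 0.47 FPKM, 5.5-fold (log2 2.15, SE 0.21, limma adjusted p = 5.48e-06). Zeb2 has 29 annotated transcripts, and its fragments were at most 81.8 to 140 per sham mouse and 429 to 895 per AAN mouse. The antisense gene Zeb2os was listed at 3.93 to 4.9 FPKM in sham mice and 3.49 to 6.44 FPKM in AAN mice. The use of strand in the counting is not given in the sources used here, so reads of the 2 genes cannot be told apart where they overlap.

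Prrx1 (ENSMUSG00000026586, chromosome 1, 163245119 to 163313710), a homeobox gene of embryonic mesenchyme and fibroblasts, went from near 0 to a low level in all AAN mice. It was 0.0107, 0.00395, 0.0114 and 0.0266 FPKM in the sham mice and 0.298, 0.391 and 0.43 FPKM at the lowest, median and highest AAN mouse. The AAN mice were closely grouped, and even the lowest was far above the highest sham mouse. Over its whole exonic length these are at most 2.08, 0.693, 2.08 and 4.85 fragments in the sham mice and 52.0 to 72.8 in the AAN mice, so no ratio of means is given. On the log2(FPKM + 0.1) scale the change was 2.07 (SE 0.21, limma adjusted p = 5.49e-06). It was 4.14 with a pseudocount of 0.01 and 0.44 with a pseudocount of 1, so the size on that scale is set by the pseudocount. The limma adjusted p was 7.31e-06 and 3.64e-05. Prrx1 was tested only because its AAN level lifted it past the filter, so these p-values are not separate support for a rise.

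Most neighbours in the order of levels were not separated within either group. In sham mice the mean levels ran from Twist1 (0.388 FPKM) through Zeb1, Zeb2, Snai2, Snai1 and Snai3 to Prrx1 and Twist2. Only the step from Snai3 to Prrx1 held in 4 of 4 sham mice, with a mean log2 difference of 1.21 (SD 0.32). In AAN mice Snai1 came first (2.54 FPKM), followed by Zeb2, Snai2, Twist1, Zeb1, Snai3, Prrx1 and Twist2. There, the steps from Snai3 to Prrx1 (1.32, SD 0.5) and from Prrx1 to Twist2 (1.07, SD 0.58) held in 6 of 6 mice, and each step above them held in 4 or 5 of 6 mice, so the first 6 places are not separated from their neighbours.

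The mixture of the 8 factors was also compared as shares of their summed FPKM, which do not depend on a scaling of the library. The sum was 1.77 to 2.03 FPKM in sham mice and 7.06 to 12.8 FPKM in AAN mice, with 7.06 in B614 and 9.76 to 12.8 in the others. Snai1 made up 15.3% ± 5.77 of it in sham mice and 23.7% ± 3.43 in AAN mice (SD), with ranges of 8.47% to 21.5% and 18.6% to 27.5% that overlap. Zeb1 made up 19.8% ± 5.83 and 11.6% ± 1.73, and its ranges overlap slightly (14% to 27.5% and 9.64% to 14.5%). Prrx1 went from 0.676% ± 0.461 to 3.65% ± 0.766, and its ranges do not overlap. The shares of Snai2, Snai3, Twist1, Twist2 and Zeb2 had overlapping ranges. These shares are given as values, with no test.

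Within each mouse, 5 differences of log2(FPKM + 0.1) were taken: those of paralogs given here, and Zeb2 and Prrx1 against cell markers given below. They were tested by exact two-sided permutation over 210 splits with Benjamini-Hochberg adjustment over the 5. Zeb2 minus Zeb1 was -0.11 ± 0.48 in sham mice and 0.57 ± 0.25 in AAN mice (SD), a difference of 0.68 (SE 0.26, exact p = 0.0143, adjusted p = 0.0238), so Zeb2 gained on Zeb1. This call was lost when sham B607, B636 or H249 was left out (0.71, 0.46 and 0.69). Snai2 minus Snai1 changed by -0.60 (SE 0.49, exact p = 0.186, adjusted p = 0.186), which is within the spread between mice. Without sham B634 the value was -0.95 and past the threshold. Twist2 minus Twist1 changed by -0.79 (SE 0.39, exact p = 0.0429, adjusted p = 0.0536) and turned to 0.77 with a pseudocount of 0.01, since Twist2 is near 0. Leaving out sham B634 or AAN B614 gave -1.08 and -0.90, both past the threshold. After the median of ratios it was -0.33 and after quantile normalization -0.14, neither past the threshold.

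The factors were then set beside markers of cells that may hold them. The 10 fibroblast markers (Pdgfra, Col1a1, Dcn and others) all passed the limits upwards and summed to 19.7 to 24.1 FPKM in sham mice and 133 to 294 FPKM in AAN mice, the lowest in B614. The 8 macrophage markers (Adgre1, C1qa, Csf1r and others) all passed upwards, from 34.7 to 54.0 FPKM to 555 to 1870 FPKM, again lowest in B614. None of the 7 endothelial markers passed (65.6 to 104 FPKM and 118 to 138 FPKM), 2 of 6 podocyte markers and 4 of 6 smooth muscle and pericyte markers passed upwards, and all 8 injured tubule markers did, from 147 to 243 FPKM to 1430 to 3650 FPKM, beside 35.8% of all genes. After the median of ratios 0 podocyte markers and 1 smooth muscle and pericyte marker passed upwards in limma, and all fibroblast, macrophage and injured tubule markers did, beside 19.0% of all genes. No gene of these lists was at 0 in all sham mice. The podocyte sum was 44.3 to 86.0 FPKM in sham mice and 50.4 to 131 FPKM in AAN mice, and that of smooth muscle and pericytes 15.4 to 19.0 FPKM and 32.3 to 43.9 FPKM. The part of each cell type in the rise of the factors was not tested.

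Zeb2 rose by less than the macrophage markers. Its log2 level minus their mean log2 level went from -2.21 ± 0.37 in sham mice to -4.65 ± 0.39 in AAN mice (SD), a difference of -2.45 (SE 0.24, exact p = 0.00476, the smallest possible, adjusted p = 0.0119). Prrx1 minus the mean of the fibroblast markers changed by -1.06 (SE 0.15, exact p = 0.00476, adjusted p = 0.0119) on the same scale. That direction was set by the pseudocount, since the value was 0.60 with an adjusted p of 0.206 with a pseudocount of 0.01.

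**Figure D2:**
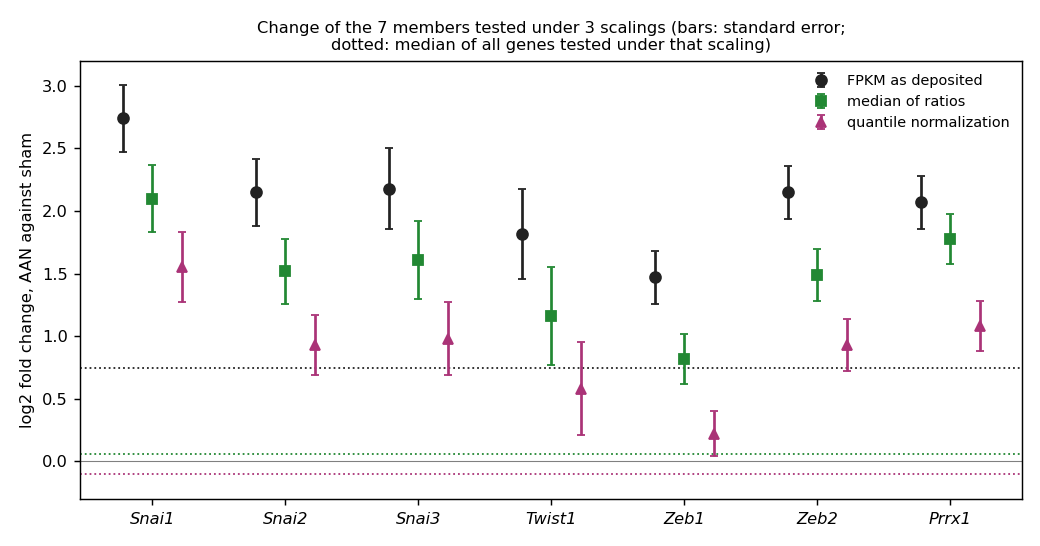
Log2 fold change of AAN against sham (vertical axis, with standard error bars) for each of the 7 factors tested, from FPKM as deposited (black circles), after the median of ratios (green squares) and after quantile normalization (purple triangles); dotted lines in the same colours are the medians of all genes tested. Each factor lies above the dotted line of its scaling, with Snai1 highest as deposited at 2.74 and Zeb1 lowest at 1.47, 0.82 and 0.22.

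The size of the rise depended on the scaling between libraries. After the median of ratios the log2 fold changes were 2.10 for Snai1, 1.52 for Snai2, 1.61 for Snai3, 1.16 for Twist1, 0.82 for Zeb1, 1.49 for Zeb2 and 1.78 for Prrx1. Set against the median of all genes under that scaling, they were 0.75 to 2.03 higher, beside 0.72 to 1.99 higher for FPKM as deposited. After quantile normalization they were 1.55, 0.93, 0.98, 0.58, 0.22, 0.93 and 1.08 in the same order, and Snai1 and Prrx1 passed the limits, beside 14.9% of all genes upwards and 11.6% downwards (2546 and 1992 genes). The direction of all 7 was upwards under each scaling. Without AAN B614 the 7 factors had log2 fold changes of 1.55 to 2.85 and all passed, beside 6395 of the 17129 genes tested upwards.

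The inputs, partners and targets of the factors were read from lists of related genes. Of 9 genes of TGF-beta signalling, the pathway best known for inducing SNAI and ZEB genes, 7 passed upwards, 0 downwards and 2 did not pass, with a median log2 fold change of 1.53, beside 35.8% upwards and a median of 0.75 over all genes. Without AAN B614 6 passed upwards, beside 6395 of the 17129 genes tested. Tgfb1, the main profibrotic ligand, rose from 1.58 ± 0.384 to 17.4 ± 5.01 FPKM (log2 3.35, SE 0.25, limma adjusted p = 5.85e-07). The type II receptor Tgfbr2 rose from 11.0 ± 4.74 to 51.7 ± 14.2 FPKM (log2 2.26), and the signal transducer Smad3 from 5.71 ± 1.19 to 16.0 ± 1.78 FPKM (log2 1.49). Of the 9, 4 passed upwards after the median of ratios, beside 19.0% of all genes.

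Of 11 relatives and partners tested, 8 passed upwards, 0 downwards and 3 did not pass, with a median of 1.33 (35.8% of all genes upwards, median 0.75). Tcf3, an E protein that pairs with TWIST1, rose from 1.75 ± 0.355 to 4.82 ± 0.277 FPKM (log2 1.43), and Id3, an inhibitor that takes up E proteins, from 28.4 ± 9.46 to 60.7 ± 6.95 FPKM (log2 1.14). Sox4, a SOX factor linked to EMT downstream of TGF-beta, rose from 2.87 ± 0.666 to 17.1 ± 3.0 FPKM (log2 2.55). On the median of ratios scale 4 passed upwards and 1, the inhibitor Id2, downwards, beside 19.0% and 10.5% of all genes. Scrt2, Hand1, Hand2 and Gsc were not analysed here.

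Of 8 corepressors that SNAI and ZEB proteins recruit, 5 passed upwards, 0 downwards and 3 did not pass, with a median of 1.27, beside 35.8% upwards and 3.43% downwards over all genes. Examples are the LIM adaptor Ajuba (6.38 ± 1.14 to 20.1 ± 5.57 FPKM, log2 1.61) and the histone demethylase Kdm1a (1.86 ± 0.527 to 4.85 ± 0.475 FPKM, log2 1.37). None of the 8 passed the limits in limma after the median of ratios, so the count of this list rested on the scaling.

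The 12 mesenchymal genes all passed upwards, with a median of 2.66, beside 35.8% and 0.75 over all genes. After the median of ratios 11 passed, beside 19.0%. Vim (vimentin) rose from 5.88 ± 2.39 to 54.1 ± 21.1 FPKM (log2 3.17), Fn1 (fibronectin) from 1.61 ± 0.252 to 17.4 ± 4.5 FPKM (log2 3.33) and Cdh2 (N-cadherin) from 0.301 ± 0.0758 to 1.74 ± 0.911 FPKM (log2 2.10). Acta2 (smooth muscle actin) had the smallest log2 fold change on this scale, from 23.7 ± 6.39 to 54.1 ± 18.9 FPKM (log2 1.15), and overlapped between the groups.

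Of 15 epithelial genes, among them genes that these repressors are known to lower, 7 passed upwards, 1 downwards and 7 did not pass, with a median of 0.91. These are near the values over all genes, 35.8% upwards, 3.43% downwards and a median of 0.75. After the median of ratios the numbers were 2, 1 and 12, beside 19.0% upwards and 10.5% downwards. Cdh1, the textbook target, was at 24.9 ± 10.5 FPKM in sham mice and 39.8 ± 11.8 FPKM in AAN mice, and the groups overlapped (log2 0.72, SE 0.28, limma adjusted p = 0.0415, under the 2-fold limit). Its log2 fold change was -0.04 after the median of ratios and 0.38 after quantile normalization. Among the genes whose promoter E-boxes are printed above, Cldn4 rose from 7.18 ± 1.89 to 58.1 ± 15.1 FPKM (log2 3.0) and Epcam from 15.2 ± 4.07 to 50.2 ± 8.29 FPKM (log2 1.74). Crb3 was at 4.39 ± 0.43 and 4.76 ± 0.718 FPKM (log2 0.11, SE 0.16, limma adjusted p = 0.571). The 1 gene past the limits downwards was Ovol1, a zinc finger factor known to repress Zeb1 and keep cells epithelial, which fell from 3.42 ± 0.425 to 1.56 ± 0.53 FPKM (log2 -1.13, SE 0.23, limma adjusted p = 0.00113).

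**Figure D3:**
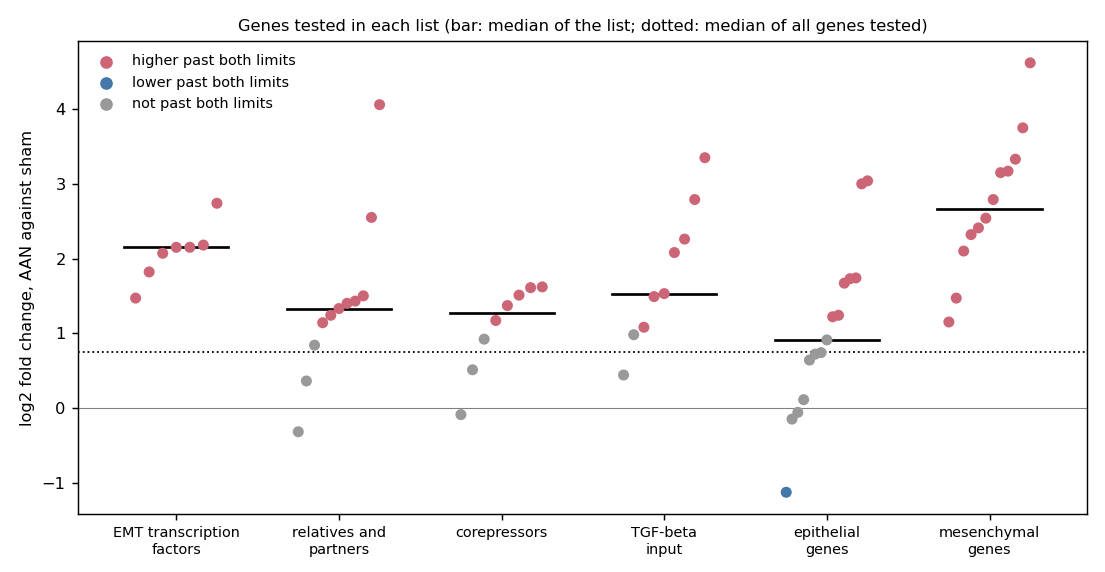
Log2 fold change of AAN against sham (vertical axis) of every gene tested in the list of factors and in 5 related lists (horizontal axis); red points passed both limits upwards, the blue point passed them downwards, grey points did not pass, bars are list medians and the dotted line is the median of all genes tested. The 7 factors lie between 1.47 and 2.74, the 12 mesenchymal genes are all red with a median of 2.66, and the 15 epithelial genes spread on both sides of 0 with Ovol1 as the blue point at -1.13.

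For the 4 factors with a mean of at least 1 FPKM, the genes most like them from mouse to mouse were looked up by Pearson's r of log2 values over the 10 mice after the mean of each group was taken out, among 12240 other genes of at least 1 FPKM. Snai1 was most like Cry1 (0.896), Arpc4 (0.877) and Gart (0.874), and no gene reached 0.9. Snai2 was most like Zfyve27 (0.954), 1600014C10Rik (0.937) and 2610507I01Rik (0.927), Twist1 most like Ube2c (0.937), C1ra (0.929) and Gtf2f2 (0.927), each with 10 genes at 0.9 or more. Zeb2 was most like Gm20457 (0.891), Dhdh (0.869) and Cpsf6 (0.837). Over 10 mice that share their library make-up with the genes compared, these values are a description only. None of these 4 factors is among the 3 genes most like another of them. The factors with a mean under 1 FPKM could not appear in this search.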

How the data were processed

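RNA of the kidney cortex of 4 sham and 6 AAN mice was sequenced as paired-end libraries. The authors mapped the reads with Hisat2, computed values with Stringtie and deposited FPKM per Ensembl gene and mouse, without counts. The build is mm10 (GRCm38), and the annotation release is not given in the sources used here. The authors' edgeR test needs counts, so limma 3.58.1 (R 4.3.3; lmFit, eBayes with trend and robust) was used on log2(FPKM + 0.1) of the 17129 genes that averaged 0.1 FPKM or more over the 10 mice, with p-values adjusted by Benjamini-Hochberg over all of them. Symbols and positions came from GENCODE mouse release 21, which holds 21650 of the 21792 genes. Depth was read from the steps of low values: 95.9% of those under 0.3 FPKM in genes of 1 transcript were whole fragments within 0.05. For the 4 factors of 1 transcript every value was a whole number of fragments within 0.15, with the gene length adjusted slightly, as decided after seeing the values. For the others only an upper limit was computed, from the whole exonic length. Intervals cover counting error only. Two-sided exact p-values are the share of splits with at least as large an absolute difference. The alternatives were 3 scalings, 2 other pseudocounts, 2 other filters on low values and limma's eBayes with both trend and robust off. No limit on the fold change, each mouse omitted in turn, and the mice tagged B alone were also run. The 8 factors, the gene lists and the rule for named genes (all factors, in each list at most 4 passing genes of highest mean, Cdh1, Vim, Fn1, Cdh2 and Tgfb1, and the 3 genes most like each factor) were chosen with earlier results of these data known. Outside that rule, Crb3, Ovol1 and Id2 were named after their values were seen where the text turns on them. A gene of the lists is not reported here.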

Additional observations from a re-analysis of the deposited data

Results flagged for a closer look

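A value stood far from its group (a gap to the next mouse, over the range of the group, past Dixon's 95% critical value) in 6 of 54 groups of values examined, where chance gives about 1 in 20, or 2.7. Snai3 in sham H249 was 0.305 FPKM, against 0.115 to 0.144 FPKM in the other sham mice, or 8 fragments against 3 to 4. The other 5 were all AAN B614. Its Snai3 level was 0.441 FPKM against 1.24 to 1.34 FPKM in the other AAN mice. The mean log2 level of the 7 factors tested was -0.04 against 0.45 to 0.74. Twist2 minus Twist1 was -2.28 against -3.06 to -2.79. The mean log2 level of the mesenchymal genes was 2.93 against 3.78 to 4.22, and that of the proximal tubule markers was 6.89 against 4.92 to 5.44. B614 was the lowest AAN mouse for 4 of the 8 factors, B642 for 3 and B630 for 1.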

How the results depend on the processing

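The factors' direction was upwards under every alternative run. The count of factors past the limits was 7 in all 10 fits that left out 1 mouse, 4 of 4 tested with a mean of at least 1 FPKM, 3 with a pseudocount of 1 and 2 after quantile normalization. Beside these, 5457 to 6653, 4025, 2909 and 2546 of the genes tested passed upwards under the same settings. The 4025 come from a smaller set than the 17129 genes of the main test, since genes averaging under 1 FPKM were left out there. Apart from any 1 factor, 12240 genes reached that level. Of the 7 tested, those no longer past both limits were Zeb1 after the median of ratios (0.82), Snai3, Twist1, Zeb1 and Prrx1 with a pseudocount of 1 (0.86, 0.90, 0.68 and 0.44), and Snai2, Snai3, Twist1, Zeb1 and Zeb2 after quantile normalization (0.93, 0.98, 0.58, 0.22 and 0.93). Twist2, judged by its exact p alone, lost its call after quantile normalization (0.44), and it was 0.82 with the median of ratios and 0.17 with a pseudocount of 1. The cause was not tested. A pseudocount of 1 lowers the fold of genes near 1 FPKM by construction. Left-out mice moved Snai1 between 2.54 and 2.89, Snai2 between 1.87 and 2.32, Snai3 between 2.08 and 2.40, Twist1 between 1.63 and 2.06, Twist2 between 0.91 and 1.18, Zeb1 between 1.35 and 1.57, Zeb2 between 2.04 and 2.21 and Prrx1 between 2.03 and 2.13.

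Among all genes tested, 3261 were higher with the median of ratios and 2909 with a pseudocount of 1, against 6126. Quantile normalization gave 2546 and no fold limit 9482. With the filter at 1 FPKM 4025 were higher, out of the smaller set described above. The lower genes numbered 1801 and 1992 under those 2 scalings (median of ratios, quantile), 332 at the same FPKM total and 1027 with no fold limit, against 588. Left-out mice gave 5457 to 6653 higher and 528 to 701 lower. Twist2 minus Twist1 passed with a pseudocount of 1 (-0.73) and at the same FPKM total (-0.99), was 0.77 with a pseudocount of 0.01, and was -1.08 to -0.52 with left-out mice. It was -0.33 after the median of ratios and -0.14 after quantile normalization (exact permutation, adjusted p = 0.448 and 0.752). Zeb2 minus Zeb1 no longer passed with a pseudocount of 0.01 (0.74) or with B tags only (0.61), and was 0.46 to 0.85 with left-out mice. Prrx1 minus the fibroblast markers was 0.60 with a pseudocount of 0.01, Snai2 minus Snai1 was -0.95 to -0.22 with left-out mice, and Zeb2 minus the macrophage markers passed in 16 of 16 alternatives. No paired analysis was possible because the groups share no mouse tags. Depth limits the sham levels of Twist2 (at most 0 to 1.65 fragments), Prrx1 (at most 0.693 to 4.85), Snai3 (3 to 8), Snai1 (4 to 12), Snai2 (4 to 16) and Twist1 (6 to 17).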
